A study of Orestias ascotanensis with 42 samples.

Results

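Gills and skin are the 2 outer surfaces through which a fish meets the water, and here their microRNA content was compared within the same animals. The animals were Orestias ascotanensis, a small killifish that lives in the springs of the Ascotán salt pan in the Chilean Andes. The members of the comparison were the 14 gill and the 14 skin libraries, 28 of the 42 small RNA libraries of the study, chosen by their tissue label and joined by the fish they came from. The other 14 libraries are of muscle from the same fish and serve below only as a reference level. Every difference is skin minus gills. The fish were wild adults with no treatment, genotype or strain given, taken with nets in 2 collections of 7 fish each. The 7 fish of collection N1 carry the treatment label winter and the 7 fish of collection N2 the treatment label summer. Tissues were dissected on site, kept in RNAlater and sequenced as separate, unpooled libraries. They were pieces of whole tissue, so that fewer cells of a type and less RNA per cell cannot be told apart in any value below. A batch label equals the number of the fish within its collection, so each difference within a fish also lies within a batch.

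MicroRNAs are short RNAs, cut from the stem of a hairpin precursor, that guide silencing proteins to messenger RNAs through a seed near their 5′ end. Many are made in a single cell type or body region, so that a tissue's microRNA profile reflects both its cells and its position along the body axis. Fish gills carry a thin epithelium with ion-transporting and neuroendocrine cells over a dense bed of blood vessels, cartilage rods and lymphoid tissue. Fish skin is a layered epithelium with mucous and pigment cells over a scaled dermis and the body wall muscle.

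The summed count over microRNA names was 598084 to 27067509 per gill library and 11091382 to 36093916 per skin library. A read counts under every name that it matches, so names that share their reads, with counts matching within 5%, were joined into read profiles. Counts of profiles are given beside the counts of called and of non-overlapping names. Other counts of names can repeat the same reads. Levels are CPM values (counts relative to the library total) scaled by the trimmed mean of M values (scaled CPM), which sets the bulk of names at about equal levels in both tissues. The shallowest gill libraries were those of N2 fish 4 (598084) and N1 fish 2 (1196380). The gill libraries of N2 fish 4 and N2 fish 2 stood apart from the other 12, with miR-10b at 44.9% and 34.8% of reads against 8.47 to 25.5%. They were also the 2 gill libraries with the lowest shares of miR-143 and miR-27b. The markers of surface epithelium miR-205 and miR-203 were abundant in every library of both tissues, at 3028 to 12761 and 1596 to 8299.9 scaled CPM in gills and 4943 to 15471 and 518 to 4689 in skin.

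The tissues differed broadly within a fish. Of 464 names tested, 253 passed at an adjusted p under 0.05 (54.5%; edgeR's quasi-likelihood test with the fish as a block, Benjamini-Hochberg adjustment), and 276 had an unadjusted p under 0.05. Skin was higher for 105 names (22.6%) and lower for 148 (31.9%). In read profiles these were 60 higher and 79 lower of 257. Over all 464 names tested, called or not, skin was higher in all 14 fish for 55 and lower in all 14 for 61. For 68 names (14.7%) the 14 gill and the 14 skin libraries did not overlap, with skin above gills for 42 and below for 26. In read profiles, 40 of 257 did not overlap. Among the called names the change exceeded 2-fold for 77 higher and 81 lower, and 8-fold for 28 higher and 11 lower. The balance of directions moved with the scaling. It was 132 higher and 122 lower with DESeq2 size factors, 124 and 112 when the miR-10 names were left out of the totals, and, with 1 name per read profile, which also leaves only 260 names to test, 72 and 69. With library totals alone it was 46 and 335, and the median log2 change of all names then moved from -0.055 to -1.12. Changes are therefore to be read relative to the other microRNAs of the library.

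**Figure D1:**
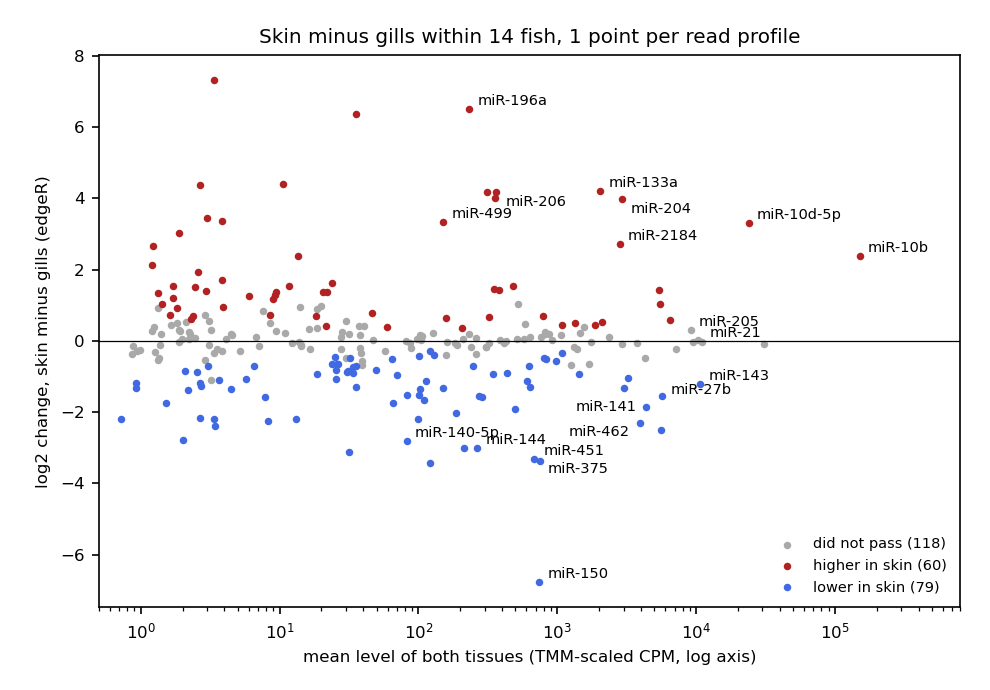
Log2 change from gills to skin against the mean level of both tissues in scaled CPM (log axis), 1 point per read profile. Red points were called higher in skin (60), blue points lower (79) and grey points did not pass (118); miR-196a near the top and miR-150 at the bottom changed 91.0-fold and 109-fold.

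A handful of names set the composition of these libraries. miR-10b, which lies in the Hox gene clusters and is read with miR-10a here because both match the same reads, took 8.47 to 44.9% of reads in gills (median 17.4) and 34.4 to 64.3% in skin (median 51.6). The ranges overlapped, and the share was higher in skin in 12 of 14 fish; the exceptions were N2 fish 2 and N2 fish 4. Its relative miR-10d-5p took 0.779 to 4.11% in gills (median 1.46) and 7.58 to 10.2% in skin (median 8.83), and was higher in skin in 14 of 14 fish without overlap. miR-181a-5p, a microRNA known from lymphocyte development, went from a median of 10.3% of gill reads to 6.38% of skin reads, with the share lower in skin in 12 of 14 fish. miR-143, a smooth muscle microRNA, went from 6.50% to 1.50% and miR-27b, linked to blood vessels and lipid metabolism, from 3.60% to 0.591%. The share of miR-27b was lower in skin in 14 of 14 fish. The 6 read profiles of the miR-10 family took 11.6 to 53.2% of gill reads and 43.8 to 75.7% of skin reads, so that all other names together held a smaller share in skin. On the scaled level, miR-181a-5p did not pass (log2 change -0.10 ± 0.29 SE, 95% interval -0.70 to 0.50, n = 14 fish, edgeR adjusted p = 0.81).

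**Figure D2:**
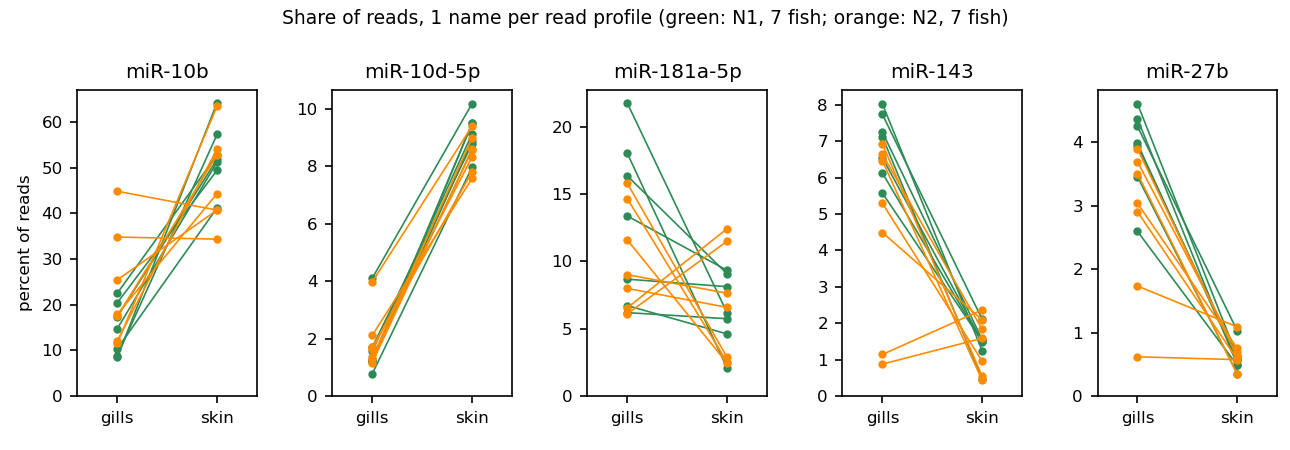
Percent of reads (1 name per read profile) of 5 abundant names in the gills and skin of each fish, joined by a line, green for collection N1 and orange for N2. miR-10d-5p rises in all 14 fish, while the 2 flat lines of miR-10b are N2 fish 2 and N2 fish 4.

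The Hox cluster microRNAs, which repress Hox transcripts and mark position along the body axis, were higher in skin. All 5 read profiles of the list that could be tested were called higher, against 60 of 257 over all profiles. Their median log2 change was 3.30, against -0.027 over all 257 profiles. miR-196a, transcribed beside the posterior Hox genes, stood at 2.01 to 15.5 scaled CPM in the 14 gill libraries (median 4.58) and at 265 to 583 in the 14 skin libraries (median 459). The groups were far apart, and miR-196a was 91.0-fold higher in skin (log2 change 6.51 ± 0.21 SE, edgeR adjusted p = 5.11e-15). In gills it rested on 6 to 248 reads per library. miR-196b had a median of 0.722 scaled CPM in gills (0.268 to 2.11) and 62.3 in skin (6.35 ± 0.20 SE). So low in gills, it can pass the filter on counts through its skin reads alone. Its place among the 5 called profiles and in their median is therefore no separate support. miR-196b-5p, a separate read profile of the same family picked after its values were seen, was at 0 in the median gill library and 3.49 to 9.74 in skin. It passed the filter on counts through its skin reads, so it adds no separate support. miR-10d-5p stood at 1814 to 16932 scaled CPM in gills (median 3706) and 29425 to 55204 in skin (median 38208), again without overlap (3.30 ± 0.29 SE, adjusted p = 9.64e-09 by edgeR). miR-10b stood at 21064 to 190897 in gills (median 41454) and 148829 to 384142 in skin (median 231878). Here the groups overlapped, with skin higher in 13 of 14 fish (2.39 ± 0.37 SE, edgeR adjusted p = 2.2e-05, and 2.74 without N2 fish 2 and 4). miR-10c changed less, by 1.43 ± 0.22 SE, with skin higher in 14 of 14 fish and overlapping groups. With library totals alone miR-10c kept its sign at 0.38 but did not pass (edgeR adjusted p = 0.118). The 2 remaining profiles of the list had too few reads for the test.

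The microRNAs of striated muscle were also higher in skin (median log2 change 4.10). All 4 tested read profiles of the list were without overlap between the tissues, against 40 of 257 over all profiles. miR-133a, which acts in muscle growth and differentiation, stood at 134 to 317 scaled CPM in gills (median 196) and 2649 to 6490.5 in skin (median 3660.4). Every skin library lay far above every gill library, and the fitted change was 18.5-fold (log2 4.21 ± 0.18 SE, edgeR adjusted p = 2.06e-13). Its near-identical relative miR-133b rose by 4.19 ± 0.21, and single reads may be split between the 2 names. miR-206, specific to skeletal muscle, stood at 21.5 to 156 in gills (median 30.9) and 276 to 1446 in skin (median 586; 4.01 ± 0.29 SE, adjusted p = 7.22e-10 by edgeR). miR-499, hosted by a slow and cardiac myosin gene in vertebrates, stood at 8.46 to 46.0 in gills and 138 to 639.5 in skin (3.33 ± 0.25 SE). The opposite strands of these hairpins moved with them, though at few reads. miR-133-5p stood at 0.618 to 2.11 scaled CPM in gills and 17.1 to 25.0 in skin (4.40 ± 0.15 SE). miR-499-3p stood at 0 to 1.35 and 3.62 to 13.3 and miR-206-5p at 0 to 0.928 and 0.979 to 8.13, and none of the 3 overlapped between tissues. The 3 strands were low in gills, and such names can pass the filter on counts through skin alone. They were also picked after their values were seen, and are no separate support for the rise of the list.

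Muscle libraries of the same fish give these levels a scale. The summed level of the tested muscle list was 114 to 255 scaled CPM over the gill libraries, 2195 to 4932 over skin and 10008 to 25629 over muscle, now scaled with all 42 libraries. All percentages of the muscle level, here and below, were computed under this scaling alone and may move with another. miR-10b took a median of 78.6% of reads in muscle, against 51.6% in skin. In each fish the skin level of miR-133a was 8.76 to 27.1% of the muscle level (median 14.1), and that of miR-206 was 3.99 to 33.3% (median 10.5). Within a library, the ratio of miR-206 to miR-133a had medians of 0.179 in gills, 0.165 in skin and 0.209 in muscle, with wide overlap. The ratio of miR-499 to miR-133a was instead 0.0293 to 0.225 in gills and 0.0418 to 0.0985 in skin, all above the muscle range of 0.00344 to 0.0144. The skin level of miR-499 was a median 139% of the muscle level and above it in 10 of 14 fish. How much body wall muscle the skin pieces held is not stated by the labels, and its part in the changes of miR-133a, miR-206 and miR-10b was not tested. The ratio of miR-10b to miR-133a had medians of 192 in gills, 60.4 in skin and 64.1 in muscle. For miR-196a the ratio to miR-133a was 0.0555 to 0.176 in skin, above 0.00941 to 0.0316 in every muscle library, and higher in skin than in gills in 14 of 14 fish. The lower level of miR-133a in skin than in muscle enters this ratio. The skin level of miR-196a itself was 74.5 to 166% of the muscle level (median 115), above it in 9 of 14 fish.

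**Figure D3:**
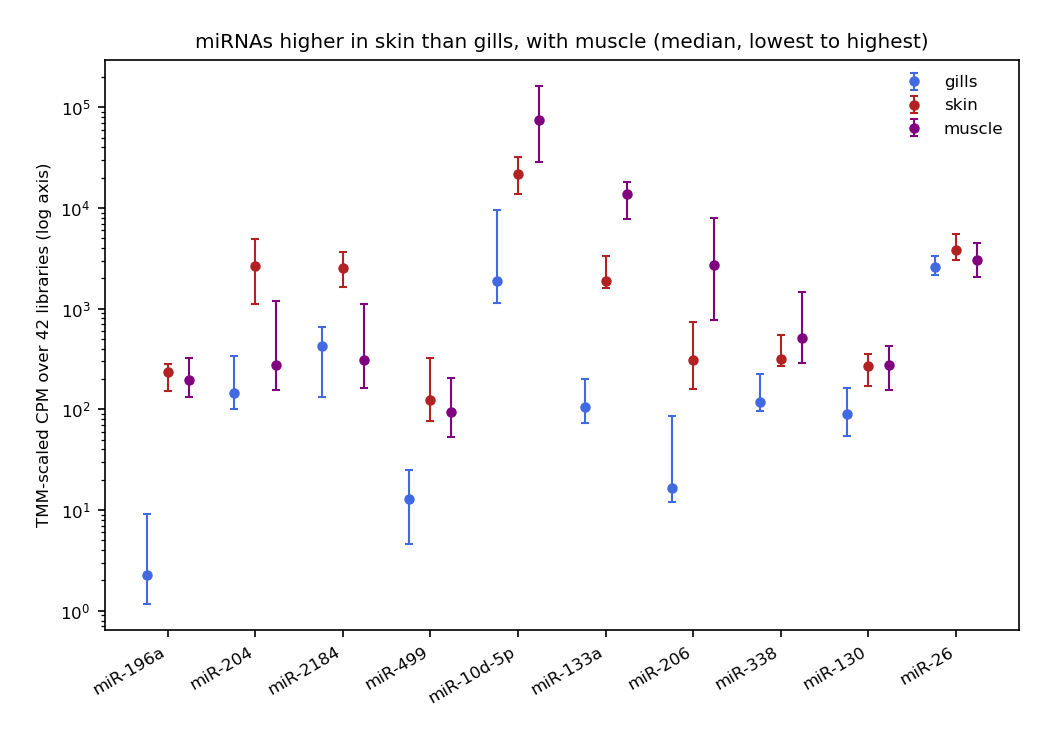
Levels of 10 names called higher in skin than in gills, in scaled CPM over 42 libraries (log axis), with dots at the median and lines from the lowest to the highest of 14 libraries per tissue. miR-204 and miR-2184 stand highest in skin, while miR-133a, miR-206 and miR-10d-5p stand highest in muscle under this scaling. As a share of reads, miR-10d-5p had a median of 7.48% in muscle and 8.83% in skin.

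miR-204 and miR-2184 stood higher in skin than in gills or muscle in every fish. miR-204, known from pigment cells and the eye, stood at 209 to 626 scaled CPM in gills (median 293) and 2086 to 10982 in skin (median 5189). The groups did not overlap, and the change was 15.8-fold (log2 3.98 ± 0.24 SE, edgeR adjusted p = 3.25e-11). Skin exceeded muscle in 14 of 14 fish, at 101 to 1979% of the muscle level (median 1009), so the fish with the lowest value was nearly level. The opposite strand miR-204-3p and the relative miR-204b rose too, by 4.38 ± 0.36 and 3.44 ± 0.25 SE. Their skin medians were 3.60 and 5.12 scaled CPM. Both were picked after their values were seen and add no separate support. miR-2184, a fish microRNA, stood at 241 to 1049 in gills (median 827) and 3022 to 6429.6 in skin (median 5321) without overlap (2.70 ± 0.19 SE, adjusted p = 5.46e-10 by edgeR). It too exceeded muscle in 14 of 14 fish, at 294 to 1597% (median 757). miR-338 rose by 1.53 ± 0.11 SE, miR-130 by 1.46 ± 0.12 and miR-130a-3p by 1.42 ± 0.11, each in 14 of 14 fish and without overlap. The last 2 had close levels, with medians of 178 and 196 in gills and 529 and 564 in skin. They may largely share reads and do not count as 2 separate rises. miR-130, which is linked to blood vessel growth in mammals, stood at 112 to 296 in gills and 339 to 629 in skin, and skin was at a median of 98.0% of the muscle level, above it in 7 of 14 fish. miR-132d, whose relatives respond to neuronal activity in mammals, went from a median of 4.33 to 22.4 scaled CPM (2.38 ± 0.18 SE). miR-184b, a relative of the epithelial microRNA miR-184, went from 3339 to 7712 (1.04 ± 0.21 SE, 12 of 14 fish). miR-132d and miR-184b were picked after their values were seen. miR-26, a broadly expressed microRNA, rose only by 0.60 ± 0.13 SE in 14 of 14 fish, and its sign turned with library totals alone (-0.45).

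**Figure D4:**
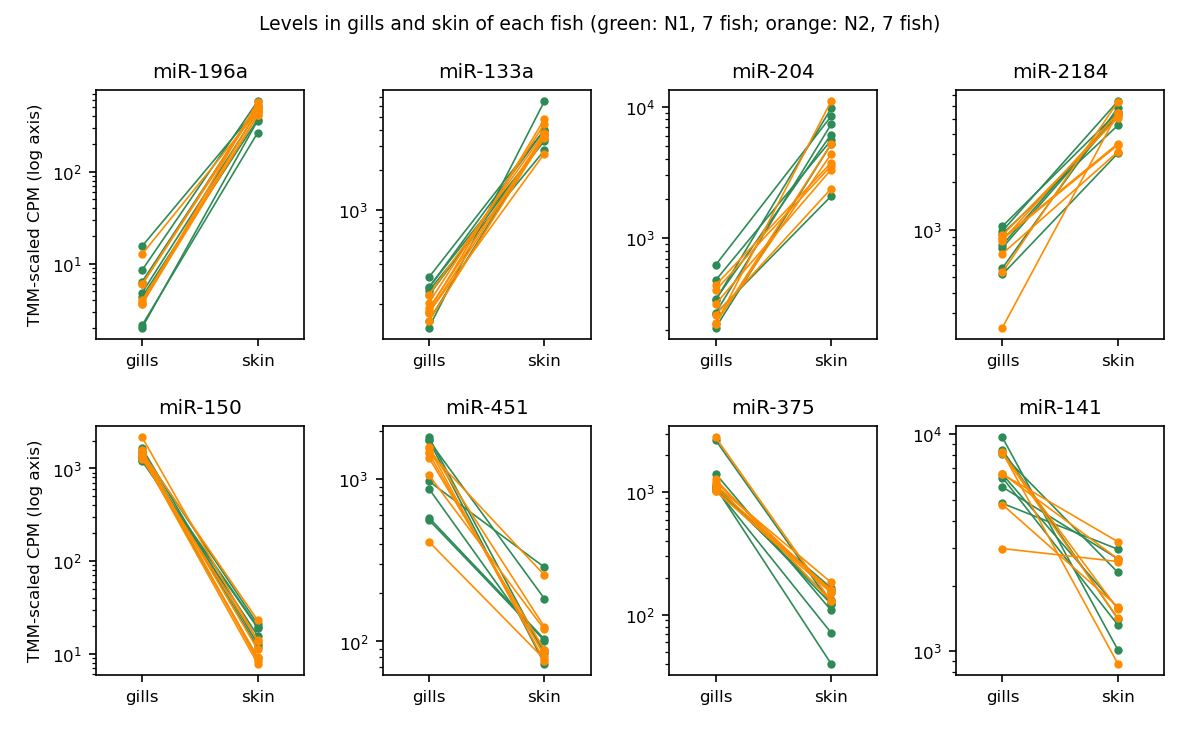
Scaled CPM (log axes that differ between panels) of 4 names higher and 4 names lower in skin, with the gills and skin of each fish joined by a line, green for N1 and orange for N2. All 14 lines run the same way in each panel, and only miR-141 overlaps between tissues.

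The change furthest downward belonged to a lymphocyte microRNA. miR-150, made by mature B, T and natural killer cells, stood at 1198 to 2167 scaled CPM in gills (median 1424), a narrow range over 14 fish, and at 7.81 to 23.1 in skin (median 13.3). The groups did not overlap, and miR-150 was 109-fold lower in skin (log2 -6.77 ± 0.20 SE, edgeR adjusted p = 1.5e-15). Scaled over all 42 libraries, its medians were 757 in gills, 7.09 in skin and 5.53 in muscle. Other white blood cell microRNAs differed far less. miR-142, found throughout blood cells, stood at 346 to 731 in gills and 135 to 573 in skin and fell by 0.90 on the log2 scale (SE 0.21, 11 of 14 fish, edgeR adjusted p = 0.00102); in collection N1 alone it did not pass (-0.53, adjusted p = 0.131). miR-155, induced in activated lymphocytes, stood at 27.3 to 63.5 in gills and 16.9 to 32.0 in skin (-0.87 ± 0.16 SE, lower in 14 of 14 fish). miR-146a-5p, a brake on innate immune signalling, did not pass (-0.06 ± 0.20 SE, 95% interval -0.48 to 0.36), nor did miR-146b-5p at -0.12 ± 0.24. Within a library the ratio of miR-150 to miR-142 was 1.69 to 3.70 in gills and 0.0182 to 0.107 in skin. The ratio of miR-150 to miR-155 was 26.0 to 49.0 in gills and 0.244 to 1.21 in skin. Both ratios were lower in skin in 14 of 14 fish, and neither depends on the scaling. Of the 5 tested profiles of the white blood cell list 3 were lower and 2 did not pass (median -0.87). Over all 257 profiles 79 were lower and 118 did not pass. Of the 2 profiles of the miR-181 family, miR-181b-5p fell by 1.04 on the log2 scale (SE 0.21, edgeR adjusted p = 0.000347), while miR-181a-5p did not pass.

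Red blood cell microRNAs were lower in skin as well. miR-451, which matures without Dicer and is needed for red cell maturation, stood at 412 to 1814 scaled CPM in gills (median 1401) and 73.0 to 287 in skin (median 95.1), 9.99-fold lower and without overlap (-3.32 ± 0.24 SE, edgeR adjusted p = 7.22e-10). miR-144, from the same transcript, stood at 323 to 1399.8 in gills and 33.5 to 89.1 in skin (-3.02 ± 0.16 SE), and its 3p strand fell by 3.41 on that scale. The ratio of miR-144 to miR-451 had medians of 0.286 in gills and 0.417 in skin and was higher in skin in 9 of 14 fish. The summed level of the red blood cell list was 507 to 1104 scaled CPM over the gill libraries, 54.4 to 161 over skin and 102 to 250 over muscle, scaled with all 42 libraries. Of the 5 white blood cell profiles tested, 3 were lower in skin, against 79 of 257 over all profiles. The other 2, miR-146a-5p (-0.06 ± 0.20) and miR-146b-5p (-0.12 ± 0.24), did not pass. The part of blood left in the tissue in these values was not tested.

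The epithelial microRNAs of the miR-200 family, which hold cells in an epithelial state by repressing Zeb factors, were lower in skin. All 4 tested profiles were called lower (median log2 change -1.88), against 79 of 257 over all profiles. miR-141, read together with miR-200a, stood at 2974 to 9672 scaled CPM in gills (median 6565) and 877 to 3199 in skin (median 1593). The ranges overlapped slightly, and skin was lower in 14 of 14 fish (-1.86 ± 0.24 SE, edgeR adjusted p = 2.58e-06). miR-200b stood at 256 to 1188 in gills and 78.1 to 479.9 in skin (-1.91 ± 0.16 SE) and miR-200c stood at 89.6 to 449.5 in gills and 29.1 to 181 in skin (-2.03 ± 0.16 SE), both in 14 of 14 fish. miR-429-3p fell by 1.31 (SE 0.22) in 13 of 14 fish. The 2 classic keratinocyte microRNAs parted. miR-203, which pushes epidermal cells out of the cell cycle in mammals, stood at a median of 4039 in gills and 1865 in skin (-1.31 ± 0.26 SE, lower in 13 of 14 fish); in collection N2 alone it did not pass (-0.80, edgeR adjusted p = 0.072). Its relative miR-203b-3p changed by -1.31 ± 0.21. miR-205, which supports epithelial progenitors, did not pass (0.31 ± 0.21 SE, 95% interval -0.13 to 0.76), and its sign turned with library totals alone (-0.75). The ratio of miR-205 to miR-203 within a library had medians of 1.93 in gills and 7.00 in skin, and was higher in skin in 12 of 14 fish. In muscle the medians of miR-141, miR-203 and miR-205 were 59.9, 103 and 98.5 scaled CPM over the 42 libraries.

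miR-375, known from neuroendocrine and secretory epithelial cells, stood at 1019.5 to 2808 scaled CPM in gills (median 1119) and 40.0 to 184 in skin (median 131). The groups did not overlap, and the change was 10.3-fold downward (-3.37 ± 0.21 SE, edgeR adjusted p = 5.88e-11). miR-7b of the same list, low in both tissues, was called lower (-1.26 ± 0.52 SE, adjusted p = 0.0476 by edgeR) but not without the replicate block (adjusted p = 0.0686 by edgeR) or without N2 fish 2 and 4 (0.154). It kept the call in 4 of the 14 fits that left out 1 fish, those without N1 fish 5 or N2 fish 1, 5 or 7. The remaining tested profile of that list, miR-7, was as low and did not pass (-1.09 ± 0.51 SE, edgeR adjusted p = 0.0768). miR-140-5p, a cartilage microRNA, stood at 57.1 to 224 in gills and 6.15 to 32.0 in skin, without overlap (-2.82 ± 0.18 SE, adjusted p = 9.6e-11 by edgeR). In the same list of cartilage and fibroblast microRNAs, miR-199, miR-199a-5p and miR-29a did not pass, and miR-214, a fibroblast microRNA, was higher in skin by 0.66 ± 0.14 SE, with a negative sign under library totals alone (-0.40) and no call in N2 alone. miR-449a-5p, of multiciliated cells in vertebrates, was low in both tissues, at 1.47 to 6.29 in gills and 0.126 to 0.919 in skin (-2.79 ± 0.26 SE), and miR-1788-3p stood at 12.7 to 85.3 in gills and 1.86 to 11 in skin (-3.10 ± 0.36 SE). These last 2 names were picked after their values were seen.

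Both smooth muscle microRNAs were lower in skin, unlike those of striated muscle. Over all 257 profiles 79 were lower. miR-143 stood at 3726 to 31256 scaled CPM in gills (median 15648) and 1935 to 10244 in skin (median 7020.2), lower in 12 of 14 fish (-1.21 ± 0.31 SE, edgeR adjusted p = 0.00261). The exceptions were again N2 fish 2 and N2 fish 4, without which the change was -1.54; in collection N2 alone miR-143 did not pass (-1.01, adjusted p = 0.154 by edgeR). Its cluster partner miR-145-5p fell in 14 of 14 fish (-1.53 ± 0.14 SE, adjusted p = 1e-08 by edgeR). miR-27b stood at 2628 to 10548 in gills (median 9221) and 2084 to 4713 in skin (median 2711), lower in 14 of 14 fish (-1.55 ± 0.17 SE), and miR-23b, from the same cluster, fell by 1.65 (SE 0.12) without overlap. The separate profile miR-23b-3p fell in 13 of 14 fish (-0.69 ± 0.14 SE, edgeR adjusted p = 0.000323) and did not pass the test in collection N1 alone (-0.47, edgeR adjusted p = 0.179). The other 4 tested profiles of the list around miR-23, miR-27 and miR-24 did not pass. Among them, miR-27c, at 9523 and 10056, had a change of 0.03 ± 0.16, miR-23a of 0.07 ± 0.11 and miR-24 of -0.16 ± 0.11. The endothelial microRNA miR-126-5p, at 2729.7 and 2383, did not pass either (-0.09 ± 0.15 SE, 95% interval -0.41 to 0.23). Its opposite strand miR-126-3p, which is not in the list, had a log2 change of -0.71. The log2 ratio of 5p to 3p reads of this hairpin rose by 0.62 (SE 0.29) and did not pass (limma adjusted p = 0.208).

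MicroRNAs linked to oxygen and salt gave a mixed picture. miR-462 and miR-731 share a cluster that hypoxia and interferon induce in fish. miR-462 stood at 2588 to 21933 scaled CPM in gills (median 5758) and 583 to 2370.5 in skin (median 1198), lower in 14 of 14 fish and without overlap (-2.31 ± 0.28 SE, edgeR adjusted p = 9.5e-07). miR-731 stood at 450.5 to 1647 in gills and 189 to 605 in skin, also in 14 of 14 fish but by less (-1.14 ± 0.17 SE). The ratio of miR-462 to miR-731 had medians of 7.61 in gills and 3.20 in skin and was lower in skin in 13 of 14 fish. miR-210, the hypoxia microRNA of vertebrates at large, did not pass (-0.35 ± 0.19 SE, 95% interval -0.74 to 0.04). miR-2188-5p varied widely among gills, at 1305 to 44095, against 392 to 4628 in skin (-2.50 ± 0.53 SE, 13 of 14 fish, picked after its values were seen). Over all 257 profiles 60 were called higher and 79 lower. Of the 6 osmotic response profiles, miR-30b-5p (0.51 ± 0.20) and miR-30d (0.44 ± 0.13) were called higher and miR-30e-5p (-0.34 ± 0.12) lower. The first 2 turned negative with library totals alone (-0.53 and -0.60). The miR-30 names shared reads in part. miR-30a-5p had the gill median of miR-30e-5p (1118) and the skin median of miR-30b-5p (1299), so these are not separate results. miR-30a-5p and miR-30c-5p did not pass here, but both were called with 1 fixed entry per name. The call of miR-30b-5p (edgeR adjusted p = 0.0393) held in 5 of the 14 fits that left out 1 fish and was lost without any 1 of N1 fish 2, 3, 4, 5 and 7 and N2 fish 3, 5, 6 and 7. That of miR-30e-5p was lost without N1 fish 1 and held in 6 of 15 other settings, not with DESeq2, and in neither collection alone did any of the 3 names pass. miR-21, the sixth profile, was at 10184 in gills and 11021 in skin (-0.02 ± 0.15 SE, 95% interval -0.34 to 0.29), higher in skin in 7 of 14 fish.

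**Figure D5:**
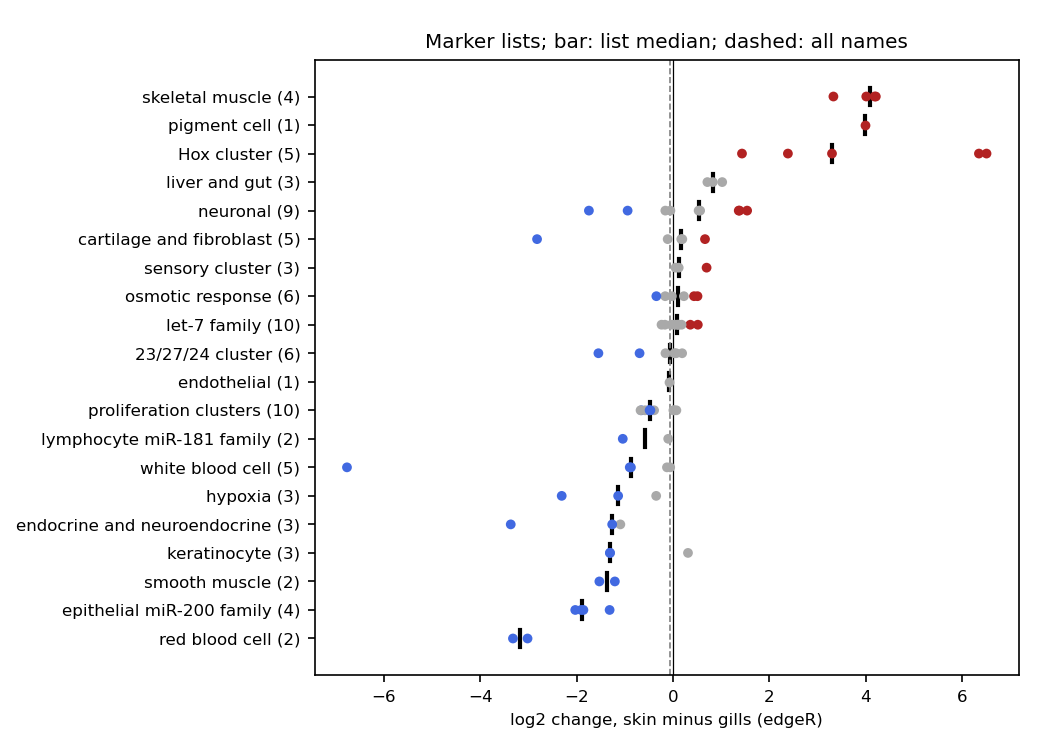
Log2 change from gills to skin of each tested read profile, by marker list, with the number tested in brackets, the list median as a black bar and the median of all names (-0.055) as a dashed line. Red points were called higher in skin, blue lower and grey did not pass. The muscle and Hox lists are among those wholly to the right. The miR-200 and red blood cell lists are among those wholly to the left.

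In the other lists most profiles did not pass or moved both ways. Over all 257 profiles 60 were higher, 79 lower and 118 did not pass. Of 9 neuronal profiles, miR-9 (1.38 ± 0.24 SE), miR-129 (1.54 ± 0.25) and miR-138-5p (1.37 ± 0.24) were higher in skin, miR-124-3p (-1.74 ± 0.31) and miR-218a (-0.95 ± 0.10) lower, and 4 did not pass (median 0.53). With library totals alone the 3 higher ones kept their sign but did not pass (edgeR adjusted p = 0.263, 0.13 and 0.425). The levels of these 3 were low in both tissues, and in muscle miR-9 had a median of 429 scaled CPM over the 42 libraries against 15.5 in skin. miR-124-3p was near the floor, at 0 to 4.64 scaled CPM in gills and 0.124 to 1.355 in skin. It passed the filter on counts in only 4 of the 14 fits that left out 1 fish, and was called in those 4. Of the sensory cluster, miR-183 was higher by 0.70 ± 0.28 SE, with a negative sign under library totals (-0.35), and miR-96 and miR-182 did not pass. The miR-183 call (edgeR adjusted p = 0.0435) was lost in each collection alone and without any 1 of N1 fish 1, 2, 3, 5 and 7 and N2 fish 1, 3, 5 and 7. Of the 10 let-7 profiles, which restrain growth in differentiated cells, 2 were higher, near the share of 60 in 257 over all profiles. These were let-7c (0.36 ± 0.15) and let-7d-5p (0.52 ± 0.17), and 8 did not pass (median 0.094). Both of the higher ones turned negative with library totals (-0.70 and -0.54). Neither passed without the replicate block (edgeR adjusted p = 0.241 and 0.124), and let-7c kept its call in 4 of the 14 fits that left out 1 fish, those without N1 fish 1 or 4 or N2 fish 2 or 4. let-7a, the most abundant, stood at 9131 and 9947 (-0.03 ± 0.20 SE, 95% interval -0.46 to 0.39). In the proliferation clusters around miR-17, 4 of 10 profiles were lower, against 79 of 257 over all profiles, and 6 did not pass (median -0.48). miR-25 (-0.49 ± 0.13 SE) was not called in N2 alone, nor miR-18a (-0.66 ± 0.19) in N1 alone or with the miR-10 names left out of the totals. miR-20a (-0.51 ± 0.20) and miR-93 (-0.47 ± 0.18) lost their calls in 7 of 15 other settings and without any 1 of N1 fish 3, 6 and 7 and N2 fish 2, 3 and 6. The 3 liver and gut profiles did not pass and ranged widely, miR-192 at 11.3 to 2391 in gills and 39.5 to 2377 in skin (1.02 ± 0.73 SE). Further names with at least 100 scaled CPM that fell in every fish were miR-203b-5p (-2.20 ± 0.22 SE), miR-1338-3p (-1.74 ± 0.18) and miR-1388-5p (-1.57 ± 0.12), the last 2 without overlap. The gonad marker miR-202 had too few reads to be tested. Among abundant names, miR-100 (-0.24 ± 0.19 SE, 95% interval -0.64 to 0.17), miR-725-3p (-0.43 to 0.39) and let-7e (-0.40 to 0.62) gave intervals that include 0.

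Both strands of a hairpin mostly moved together. The 5p to 3p ratio was tested in 34 hairpins with at least 10 reads per strand in the median library of each tissue, and 4 passed (11.8%; limma on log2 ratios with the fish as a block, Benjamini-Hochberg adjustment), with 8 at an unadjusted p under 0.05. Both strands changed in the same direction in 27 of 34 hairpins, and the ratio moved by less than 2-fold in 32. The 34 are not all separate, since some share the reads of 1 strand. Examples are mir-142-1 and mir-199-2, each tested under 2 species prefixes, and the pair mir-21-2 and mir-21b. The log2 ratio of mir-203 fell by 0.91 (SE 0.21, limma adjusted p = 0.0045), lower in 13 of 14 fish; the 5p strand fell by 2.20 and the 3p strand by 1.31. That of mir-143 fell by 0.84 (SE 0.23, adjusted p = 0.016 by limma), on a median of 10.5 reads of the 5p strand in skin. That of mir-23a-1 rose by 1.30 (SE 0.30, adjusted p = 0.0045 by limma) and that of mir-30a-3 by 1.24 (SE 0.36, adjusted p = 0.016 by limma), with a median of 17 and 38 reads of the minor strand in gills. The mir-30a-3 call was lost without N1 fish 5, N2 fish 5 or N2 fish 7. In the hairpins of miR-133a and miR-499 the ratio changed by 0.03 (SE 0.21) and 0.07 (SE 0.32), while each strand rose by more than 3 on the log2 scale. Several of these calls rest on few reads: 1 hairpin passed with at least 50 reads per strand, and 8 passed without N2 fish 2 and N2 fish 4.

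Few names were called for a difference between the collections in their change from gills to skin. Of 464 names 2 passed for an interaction of tissue and collection (0.431%; edgeR with the fish as a block), with 31 at an unadjusted p under 0.05. The first was miR-26d-5p, whose median within-fish change was -0.31 in N1 and 1.64 in N2 (difference 1.96 ± 0.28 SE, edgeR adjusted p = 0.00113). Its gill level was 17.3 to 39.6 scaled CPM in the 7 N1 fish and 4.89 to 16.9 in the 7 N2 fish, while its skin level was 13.2 to 31.8 and 14.4 to 43.0. The gill libraries of the collections did not overlap and the skin libraries did. The second was miR-31-5p, at -0.02 and 2.35 (difference 3.13 ± 0.59 SE, adjusted p = 0.013 by edgeR). Its skin level was 0 to 1.31 scaled CPM in N1 and 7.29 to 64.6 in N2. In gills miR-31-5p was at 0 to 8.22 over all 14 fish (median 2.59), so its N1 change compares levels near the floor. Without N1 fish 4 only 1 name passed, and without N1 fish 5 there were 4; miR-31-5p had an adjusted p of 0.0551 by edgeR without the 2 fish with the shallowest gill libraries. Gill libraries also differed in depth between the collections, with medians of 4947715 in N1 and 20423114 in N2. Collection date, season label and any handling shared by a collection cannot be told apart. Of the names called between tissues, miR-150 had medians of -6.32 and -7.18, miR-196a 6.25 and 6.51, and miR-462 -1.60 and -3.22 in N1 and N2, none of which passed the interaction test.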

How the data were processed

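Small RNA libraries were gel-selected, built with a TruSeq small RNA kit (Illumina) and sequenced on a NextSeq 500, with read 1 used, per the labels' protocols. Each library has a deposited table of read counts per mature microRNA and precursor, whole numbers with no normalization, per the file headers. CPM values computed by the authors stand beside them, per the file headers, and were not used. Their columns are those of the miRDeep2 quantifier; aligner, settings and microRNA release: not given in the sources used here. Names carry 13 species prefixes, so reads were counted against microRNAs of other fishes. No genome or microRNA sequence was used here.

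The 3527 entries common to all 42 tables were used. Of 1342 names without prefix, each was represented by its entry of highest count in each library, which need not be the same entry throughout. In the 28 gill and skin libraries 669 names had reads. Reads count under every name they match, so family members that differ by few bases are uncertain as separate molecules. Arms that a list name does not state stand for the more abundant one. For miR-1 only the 5p arm was considered, which had too few reads.

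The counts entered edgeR 4.0.16 under R 4.3.3 (filterByExpr at count 10 and total 15, TMM scaling, quasi-likelihood test, Benjamini-Hochberg threshold 0.05), with tissue and 14 fish as terms over 28 libraries. A collection by tissue term gave the interaction. SE was taken as the log2 change over the root of the F statistic. Levels of muscle were scaled with all 42 libraries; within-fish differences used log2 of scaled CPM + 0.5. Strand ratios were tested with limma 3.58.1 on log2 of (5p + 0.5) over (3p + 0.5) reads, again with the fish as a block. DESeq2 1.42.0 was an alternative. The scripts were tested on simulated counts. Pairing comes from the design text, by which each fish gave all tissues. Over 257 profiles, deviations were taken from the mean of each tissue within a collection. Those of a fish's gills and skin correlated with a median of 0.183 (-0.559 to 0.595), above 0.1 in 8 of 14 pairs. Within its collection, the skin library that best matched a gill library was that of the same fish in 6 of 14 cases. Among 84 pairs of libraries of the same tissue and collection 0 were identical, with a lowest chi-square per degree of freedom of 51.1, so each counted as a replicate.

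Named microRNAs are the 15 with the largest change in each direction (14 met the rule upward) among those called, with the same sign in 14 fish and at least 100 scaled CPM in the higher tissue, 1 per read profile; the 10 most abundant; the 8 with the smallest change at 1000 scaled CPM or more; called hairpins and interactions; and list members. The comparison, its members and the lists were chosen with earlier results of these data known. Reads carry no molecular identifiers. Titles of both collections say summer, and seasons follow the treatment label.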

Additional observations from a re-analysis of the deposited data

Results flagged for a closer look

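In 96 groups of 7 within-fish changes (log2, skin minus gills), 5 held a fish far from the other 6, and chance alone gives about 1 in 20. In N2, fish 4 had a change of 5.11 for miR-196a, where the other 6 fish had 6.29 to 7.13; it rests on 6 gill reads. The same fish had -4.43 for miR-375, against -3.30 to -2.63. Its gill library is the shallowest of all. In N1, fish 4 had 1.67 for miR-10d-5p, against 3.57 to 4.25. In N2, fish 2 had 1.25 for miR-26, against 0.339 to 0.686, and 1.03 for miR-126-5p, against -0.572 to -0.031. Its gill library is among the 2 that stand apart in their miR-10b share.

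The change from gills to skin differed between the collections for 2 names by the interaction test, by 1.96 on the log2 scale for miR-26d-5p and by 3.13 for miR-31-5p. The library of gills from N1 fish 1 has 71 entries that no other table holds, under 3 further species prefixes. They hold 1, 6 and 256918 reads, the last 0.73% of the reads under all its entries. These entries are in no comparison.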

How the results depend on the processing

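The 29 names of the rule for the largest changes had been picked as called, with the same sign in 14 fish and at least 100 scaled CPM. That 29 of 29 were called in every fit that left out 1 fish was therefore largely set by this choice and is no separate support. Of the 29, 27 were called in every other setting, and 28 kept their sign in all of them. The exceptions were miR-10c and miR-26. The same choice favoured these counts, which are no separate support either. Without the replicate block, that is without pairing by fish, 248 names were called (103 higher, 145 lower), of which 234 were shared with the paired fit. Library totals alone gave 381 (46 higher, 335 lower), and 1 name per read profile, which leaves fewer names to test, 141 (69 lower). Leaving out 1 fish gave 227 to 258, 93 to 110 higher and 130 to 154 lower. Interactions numbered 9 with DESeq2, 4 with no filter on low counts, 1 with the batch number by tissue as a replicate block (miR-31-5p adjusted p = 0.0672 by edgeR), 1 without the 2 fish with the shallowest gill libraries, and 1 to 4 with 1 fish left out; the cause was not tested. Hairpins with a called strand ratio numbered 1 with at least 50 reads, 1 with a pseudocount of 5, 2 with no replicate block, 1 in N1, 0 in N2 (limma; 6 at an unadjusted p under 0.05, fewer fish), 8 without N2 fish 2 and 4, and 3 to 4 with 1 fish left out. The settings without particular fish and the totals without the miR-10 names were chosen after the data were seen. The block by fish ended or made the call of 9 of 118 named microRNAs (6 made, 3 ended).

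With library totals alone, which move the median of all names to -1.12, the sign turned for miR-26 (-0.45), miR-27c (-1.03), miR-205 (-0.75), let-7e (-0.96), miR-26d-5p (-0.38), miR-199 (-0.89), miR-199a-5p (-0.90), miR-214 (-0.40), miR-96 (-0.97), miR-182 (-0.995), miR-183 (-0.35), miR-30a-5p (-0.81), miR-30b-5p (-0.53), miR-30d (-0.60), miR-23a (-0.99), miR-27a-5p (-0.90), miR-19a-3p (-1.03), miR-19b (-1.04), miR-106b-5p (-1.04), let-7b (-0.95), let-7c (-0.70), let-7d-5p (-0.54), let-7f (-1.02), let-7i (-0.88) and let-7j (-0.98). In collection N1 alone it turned for miR-26d-5p (-0.23) and miR-31-5p (-0.60). Depth limits the gill values of rare names, most in N2 fish 4 with 241 names at 10 reads or more.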
